A study of Drosophila melanogaster with 18 samples.

Results

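The odorant-binding protein genes of *Drosophila melanogaster* were followed in adult heads kept at 3 temperatures. The members were all annotated transcripts whose gene symbol begins with Obp and a digit, together with *lush*. Identical entries of a gene were counted once, which gave 50 genes of 15334 gene names in the table. Of these 50 genes, 28 reached a signal of 10 in at least 6 of the 18 libraries and were tested for differences, and 22 did not. Canton-S flies, a wild-type laboratory strain, had been entrained for at least 3 days to a light-dark cycle at 18, 25 or 29°C, and RNA from their heads was sequenced from its 3′ ends at ZT3, ZT7, ZT11, ZT15, ZT19 and ZT23 (zeitgeber time, hours after lights on). Each temperature and time gave 1 library, so the 6 times of a temperature served as its replicates, and the p-values below measure the spread between these libraries, which includes the time of day. Neither the sex nor the age of the flies is given in the sources used here. The unit, called signal, is the number of reads divided by 1 constant per library. Because reads come from transcript ends, signals were not divided by transcript length, and differences are given on the scale log2(signal + 1).

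Odorant-binding proteins are small, soluble proteins secreted by the support cells of sensory hairs into the lymph that bathes the dendrites of olfactory and taste neurons. They hold hydrophobic molecules in an internal pocket that is braced by disulfide bridges between conserved cysteines. Members with fewer of these cysteines are called minus-C, members with additional cysteines plus-C, and members with a duplicated domain dimers. Some serve olfaction in the antenna, such as LUSH, which is needed for responses to the male pheromone 11-cis-vaccenyl acetate, others serve taste, and some are made outside sensory organs, in glia, fat body or the male reproductive tract.

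The libraries held between 1.24 and 6.62 M reads (median 3.11 M). Values above 3 reads were treated as detected, and 3 reads correspond to a signal of 1.54 to 7.36 depending on the library. The fewest reads were in the ZT15 library of 25°C. All libraries held photoreceptor RNA, with 9 photoreceptor genes summing to 28397 to 34670 at 18°C, 39890 to 44058 at 25°C and 49223 to 66234 at 29°C, while *Orco*, the co-receptor of olfactory neurons, was at 0 in 10 of the 18 libraries and reached at most 6.18. Several marker lists moved with temperature. The summed signal of 4 genes that are female-biased in the adult fat body (*Yp1*, *Yp2*, *Yp3* and *fit*) ranged from 296101 to 732739 at 18°C, from 145385 to 276834 at 25°C and from 98922 to 197560 at 29°C. The summed signal of 5 male-biased genes ranged from 813 to 3791 at 18°C, from 2134 to 4201 at 25°C and from 3479 to 4440 at 29°C. A list of 7 accessory gland and germline genes summed to between 0 and 45.5.

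The family took a somewhat larger share of the library at 18°C. Its summed signal was 1.37% ± 0.06 of all signal at 18°C, 1.24% ± 0.07 at 25°C and 1.17% ± 0.04 at 29°C (mean ± SD, n = 6 libraries each). At 18°C the share lay between 1.32% and 1.45%, above every 29°C library (1.12% to 1.24%), and it overlapped the 25°C libraries (1.16% to 1.33%). In each library between 67.3% and 81.3% of the family's signal came from the same 4 genes, *Obp44a*, *Obp56e*, *Obp99c* and *Obp19d*. Their mean signals over all libraries were 9586, 9267, 8398 and 5145. *Obp56d* (2410), *Obp99a* (2366) and *Obp56g* (1475) followed, and the remaining tested members ranged down to a mean of a few reads, as the plot of every member in every library shows.

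**Figure D1:**
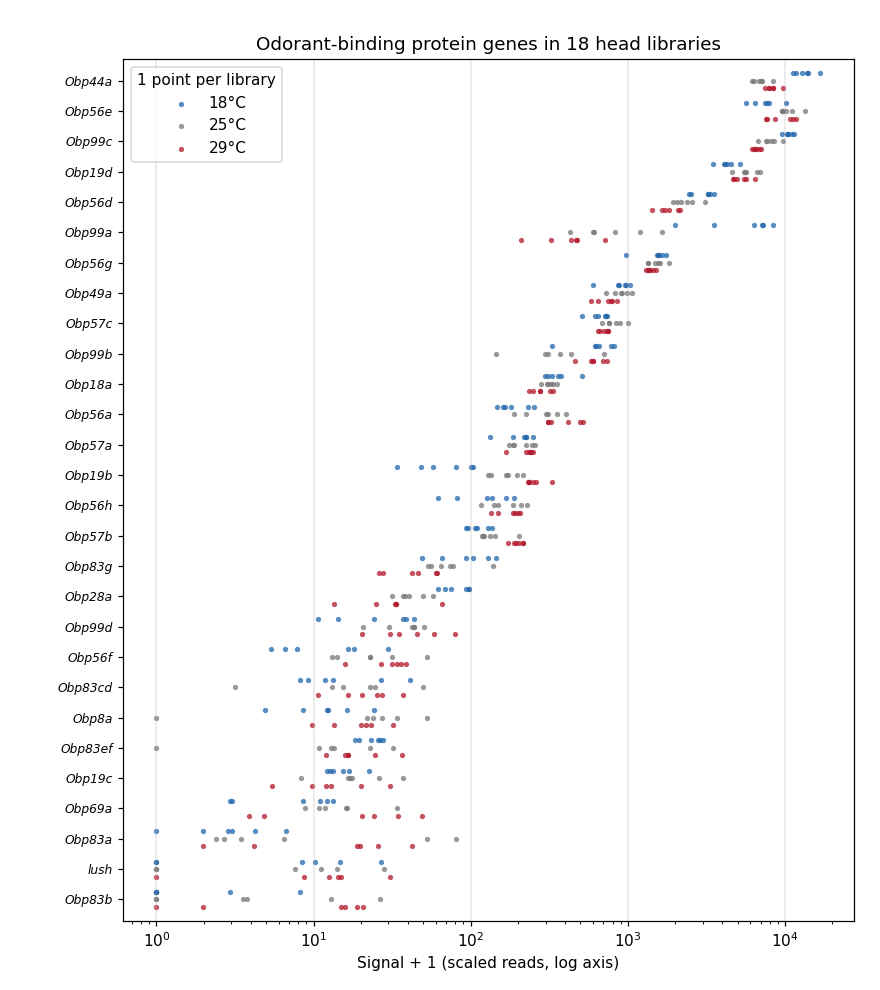
Signal plus 1 (scaled reads, logarithmic axis) of the 28 tested odorant-binding protein genes, 1 point per library, with 18°C in blue, 25°C in gray and 29°C in red and with 6 libraries for each temperature. Genes are ordered by their mean signal over all libraries, from *Obp44a* (9586) at the top, and a signal of 0 sits at 1 on the axis.

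Between 18°C and 25°C, 11 of the 28 tested members (39.3%) differed at a limma adjusted p under 0.05, against 10.8% of all 8846 tested transcript rows. Of these, 6 were higher at 18°C (background 6.68%) and 5 were lower (background 4.16%). Between 29°C and 18°C, 13 of 28 (46.4%) differed against a background of 23.1%, with 6 higher at 29°C (background 10.5%) and 7 lower (background 12.6%). Between 29°C and 25°C none of the 28 passed the threshold, against a background of 2.06% (0.814% higher, 1.24% lower). An unadjusted limma p under 0.05 was found for 10 of the 28, against 13.9% of all rows. The median change of the members was small in each comparison because members moved in both directions: −0.18 for 18°C against 25°C (all rows −0.02), 0.10 for 29°C against 25°C (all rows 0.02) and 0.23 for 29°C against 18°C (all rows 0.05). The median size of the change, sign aside, was 0.50, 0.36 and 0.68 in the members and 0.29, 0.22 and 0.35 in all rows. The comparisons share libraries and are not independent of each other. Scaling by library size alone shifted all rows by −0.17, 0.02 and 0.19 in these comparisons and called 9 members for 18°C against 25°C, 2 higher and 7 lower, and 14 for 29°C against 18°C, 8 higher and 6 lower. In such bulk tissue a smaller number of cells of a type and less RNA per cell cannot be told apart.

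**Figure D2:**
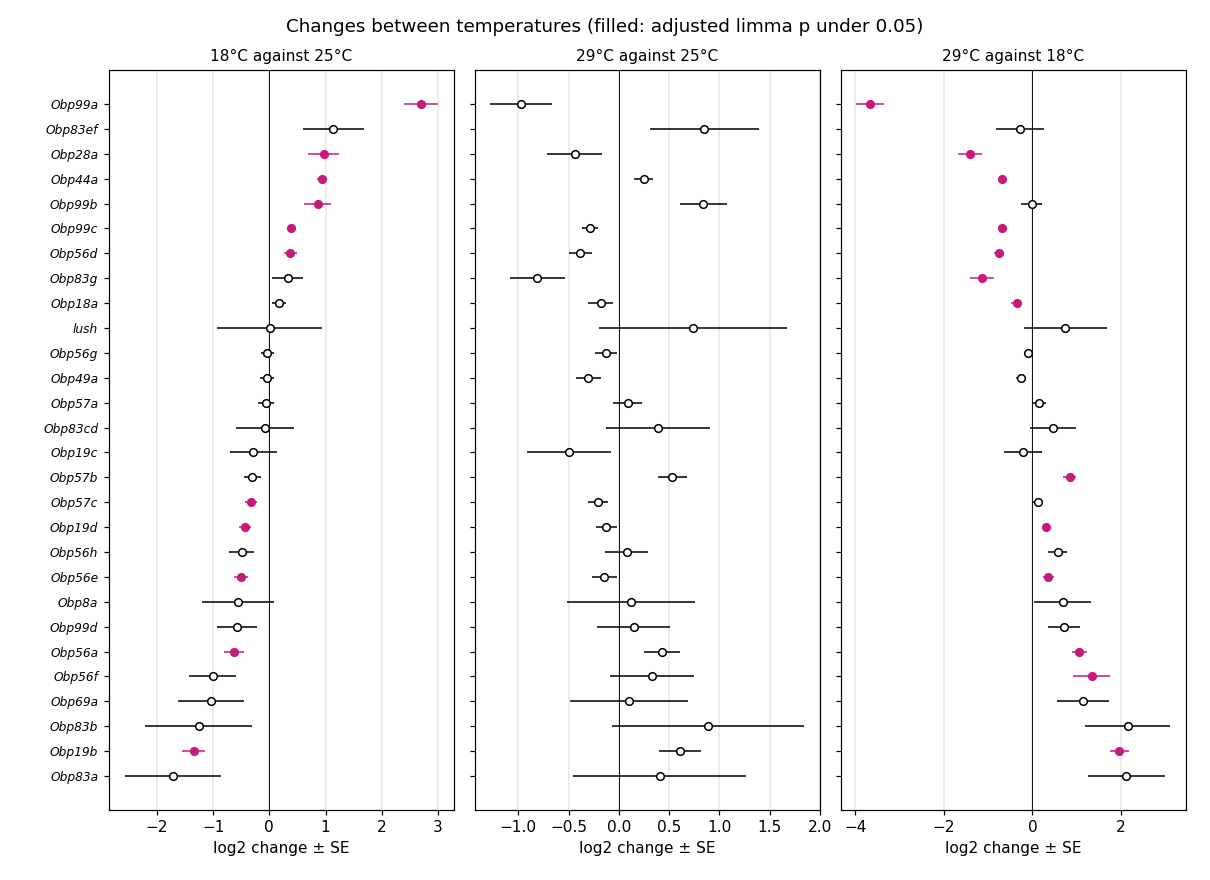
Change of each of the 28 tested members on the log2(signal + 1) scale, with its standard error, for 18°C against 25°C, 29°C against 25°C and 29°C against 18°C. Filled symbols passed a limma adjusted p of 0.05, which 11, 0 and 13 members did, and *Obp99a*, in the top row, lies at 2.70, −0.97 and −3.67.

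Grouped by the cysteine classes, a textbook division applied here after the values had been seen, the 7 minus-C genes were all tested. At 18°C against 25°C, 4 of the 7 were higher (*Obp44a*, *Obp99a*, *Obp99b* and *Obp99c*) and none was lower (all rows 6.68% and 4.16%), with a median change of 0.39 (all rows −0.02). With library size scaling, which shifted all rows by −0.17, the calls of *Obp99b* and *Obp99c* were lost (limma adjusted p = 0.0806 and 0.0603). At 29°C against 18°C, 4 of the 7 were lower (*Obp44a*, *Obp83g*, *Obp99a* and *Obp99c*) and none was higher (all rows 12.6% and 10.5%), with a median of −0.68 (all rows 0.05). Of the 12 plus-C genes only *Obp49a* had enough signal to be tested, and 8 of the 12 were at 0 in every library. The annotated coding sequences of the plus-C genes were longer (median 198.5 codons, against 146 for the minus-C genes). Among the 29 members outside the minus-C, plus-C and dimer classes, 18 were tested, of which 2 were higher and 5 lower at 18°C than in 25°C libraries, and 6 were higher and 3 lower at 29°C than at 18°C, beside the same shares of all rows.

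*Obp99a* (3R, 25497379 to 25498056, dm3) had the largest change of the called members in both comparisons with calls. Its lowest, median and highest signals were 2008, 6742 and 8407 at 18°C, 426, 720 and 1658 at 25°C, and 208, 451 and 712 at 29°C. Every 18°C library lay above every library of the other temperatures, whereas the 25°C and 29°C libraries overlapped. The gene was 6.49-fold higher at 18°C than in 25°C libraries (log2 change 2.70 ± 0.31 SE, limma adjusted p = 5.02e-07) and was 12.7-fold lower at 29°C than at 18°C (−3.67 ± 0.31, limma adjusted p = 5.1e-10). For 29°C against 25°C the change was −0.97 ± 0.31 and did not pass (limma adjusted p = 0.105). The 18°C libraries were also the most spread, with *Obp99a* at 2008 at ZT3 and 3523 at ZT11 but between 6379 and 8407 at the other 4 times. The fat body genes *Yp1*, *Yp2*, *Yp3*, *fit* and *Lsp2* were higher at 18°C than in 25°C libraries. They are 5 of the 9 tested genes of the fat body list (all rows 6.68%). *Lsp1beta*, of the same list, was low at 18°C, with 25.7 to 196 there and 268 to 672 at 29°C. That list, of 11 genes, summed to 314247 to 761284 at 18°C, 149012 to 281749 at 25°C and 102986 to 206870 at 29°C. Most of this sum came from the 4 female-biased genes above (296101 to 732739 at 18°C). The part of the fat body list in the *Obp99a* result was not tested.

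*Obp99c* (3R, 25511458 to 25512506, dm3) and *Obp44a* were among the most abundant members and had narrow ranges. *Obp99c* ranged from 9628 to 11376 (median 10464) at 18°C, from 6759 to 9686 (median 7962) at 25°C and from 6149 to 7063 (median 6519) at 29°C. The 18°C and 29°C libraries did not overlap, and the highest 25°C library, at ZT15, only just passed the lowest 18°C library. The change was 0.39 ± 0.08 for 18°C against 25°C (limma adjusted p = 0.0015) and −0.68 ± 0.08 for 29°C against 18°C (limma adjusted p = 2.82e-07). The first of these calls was lost when libraries were scaled by size alone (0.22, limma adjusted p = 0.0603). *Obp99c* shares 23 bases with *Gycalpha99B* on the opposite strand, whose mean signal was 199.

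*Obp44a* (2R, 4021875 to 4022592, dm3), known as a lipid-binding protein made by glia of the central nervous system, was higher at 18°C than at either other temperature. Its lowest, median and highest signals were 11337, 13336 and 16824 at 18°C, 6218, 6940 and 8432 at 25°C, and 7418, 8172 and 9713 at 29°C. No 18°C library overlapped those of the other temperatures, and those of 25°C and 29°C overlapped each other. The gene was 1.91-fold higher at 18°C than in 25°C libraries (0.93 ± 0.10, limma adjusted p = 1.07e-07) and 1.61-fold lower at 29°C than at 18°C (−0.69 ± 0.10, limma adjusted p = 2.94e-06), and both calls were kept under every alternative tried. Of 7 glial marker genes, *Gs2* and *nrv2* were higher at 18°C than in 25°C libraries and none was lower (all rows 6.68% and 4.16%). The changes of *Gs2* and *nrv2* were 0.30 and 0.34. At 29°C against 18°C, 3 of the 7 were lower and none was higher (all rows 12.6% and 10.5%), with a median change of −0.32. The glial list summed to 4437 to 5493 at 18°C, 3241 to 4498 at 25°C and 3171 to 3772 at 29°C, and *repo*, the defining nuclear marker of glia, had medians of 58.7, 68.0 and 60.5. The part of the glial share in the *Obp44a* result was not tested.

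*Obp99b* (3R, 25541976 to 25542549, dm3), also called *tsx* and known for its male-biased expression in the fat body of the head, had its lowest signals at 25°C. They were 330, 642 and 816 at 18°C, 145, 340 and 706 at 25°C, and 462, 600 and 738 at 29°C (lowest, median and highest). All 3 temperatures overlapped. The change was 0.86 ± 0.24 for 18°C against 25°C (limma adjusted p = 0.0161), 0.84 ± 0.24 for 29°C against 25°C (limma adjusted p = 0.0588) and −0.02 ± 0.24 for 29°C against 18°C (limma adjusted p = 0.971). The 29°C against 25°C change was called without the 25°C ZT15 library, where *Obp99b* was at 706 (1.05, limma adjusted p = 0.00817), without 18°C ZT7 (limma adjusted p = 0.033) and without 29°C ZT11 (0.92, limma adjusted p = 0.0456). The 18°C against 25°C call was lost with library size scaling (0.69, limma adjusted p = 0.0806). Its neighbour *Obp99d* had medians of 29.7, 41.8 and 39.1 at 18, 25 and 29°C and passed in no comparison. Of the 5 male-biased marker genes, *roX2* alone was called between 18°C and 25°C, lower at 18°C (all rows 4.16%). For 29°C against 25°C *sxe2* alone was called, higher at 29°C (all rows 0.814%). At 29°C against 18°C, 3 of the 5 were higher and none was lower (all rows 10.5% and 12.6%), with a median change of 0.89. The part of these genes in the *Obp99b* result was not tested.

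The remaining minus-C genes were less abundant. *Obp83g* (3R, 1937393 to 1938024, dm3) ranged from 48.1 to 144 (median 98.0) at 18°C, from 52.2 to 137 (median 68.2) at 25°C and from 25.2 to 60.1 (median 43.4) at 29°C. It was 2.20-fold lower at 29°C than at 18°C (−1.14 ± 0.27, limma adjusted p = 0.00257), with overlap between the groups. *Obp8a* had medians of 11.3, 24.5 and 19.9 and passed in no comparison.

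**Figure D3:**
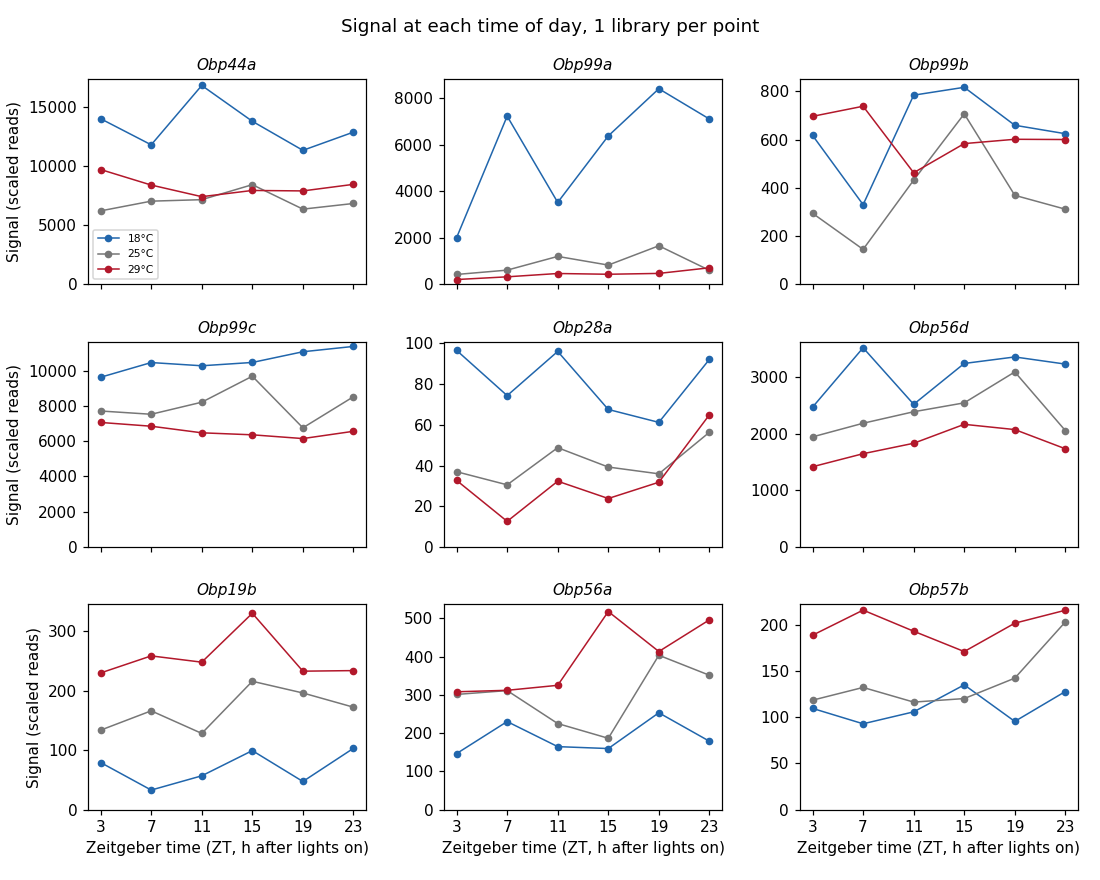
Signal (scaled reads, linear axes from 0) of 9 members at each zeitgeber time, with 18°C in blue, 25°C in gray and 29°C in red and 1 library per point. *Obp44a*, *Obp99a*, *Obp99c* and *Obp28a* lie highest at 18°C at all 6 times, *Obp19b* lies lowest at 18°C and highest at 29°C at all 6 times, and *Obp99b* is lowest at 25°C at 5 of the 6 times.

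*Obp28a*, *Obp69a*, *Obp83a*, *Obp83b* and *lush* are known from the antenna, and of these 5 *Obp28a* alone passed in a temperature comparison. These 5 are not the only members known from olfactory hairs. *Obp19d*, found in both olfactory and taste hairs and described below, was called lower at 18°C than in 25°C libraries (limma adjusted p = 0.00488). The antennal gene *Obp84a* was below the signal minimum. *Obp28a* (2L, 7496791 to 7497365, dm3), an abundant protein of the antenna, had signals of 61.2, 83.2 and 96.5 at 18°C, 30.5, 38.1 and 56.3 at 25°C, and 12.6, 32.0 and 64.9 at 29°C (lowest, median and highest). Its 18°C libraries lay above all 25°C libraries, and the highest 29°C library, at ZT23, just passed the lowest 18°C library. It was 1.95-fold higher at 18°C than in 25°C libraries (0.97 ± 0.27, limma adjusted p = 0.0191) and 2.65-fold lower at 29°C than at 18°C (−1.41 ± 0.27, limma adjusted p = 0.000273). With scaling by library size alone the first of these did not pass (0.80, limma adjusted p = 0.0546).

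*Obp83a* (3R, 1797877 to 1800967, dm3) and *Obp83b* (3R, 1801899 to 1802539, dm3), also called OS-F and OS-E, are neighbours and are both secreted in the pheromone-sensing trichoid hairs. *Obp83a* reached a signal of 79.3 at 25°C ZT3 and 51.9 at 25°C ZT23 but lay between 1.38 and 5.50 in the other 4 libraries of 25°C. At 29°C it lay at 3.16 and 0.97 at ZT3 and ZT7 and between 17.9 and 41.4 at the other 4 times, and at 18°C between 0 and 5.72. The 2 genes were high in the same libraries, since *Obp83b* reached its highest signal, 25.4, at 25°C ZT23 and up to 19.6 at ZT11 to ZT23 of 29°C. For 29°C against 18°C the changes of 2.12 ± 0.86 for *Obp83a* and 2.15 ± 0.96 for *Obp83b* did not pass (limma adjusted p = 0.0763 and 0.109). They are the tested members nearest the signal minimum, each reaching it in 6 libraries, none of 18°C, so they entered the test only through the temperatures where they were high.

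Other antennal genes were distributed over the same libraries. *a10*, a soluble antennal protein, was at 0 in all 6 libraries of 18°C, at 28.3 and 43.1 at 25°C ZT3 and ZT23 with 0 to 2.36 at the other times of 25°C, and at 0 at 29°C ZT3 with 18.4 to 43.1 at the later times of 29°C. *Os-C* was at 0 in all 6 libraries of 18°C and reached 15.2 and 8.83 at 25°C ZT3 and ZT23. The list of 9 antennal marker genes summed to 5.72 to 28.9 at 18°C, 4.91 to 75.1 at 25°C and 9.49 to 71.0 at 29°C. Not every antennal gene had this distribution: *Snmp1*, a membrane protein of pheromone-sensing neurons, lay between 4.91 and 28.9 in all 18 libraries. *lush* (3L) was at 0 in 5 of the 18 libraries, with medians of 8.31, 8.40 and 12.5, and passed in no comparison (29°C against 18°C, 0.74 ± 0.94, limma adjusted p = 0.641). The part of the amount of antennal tissue in these values was not tested.

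**Figure D4:**
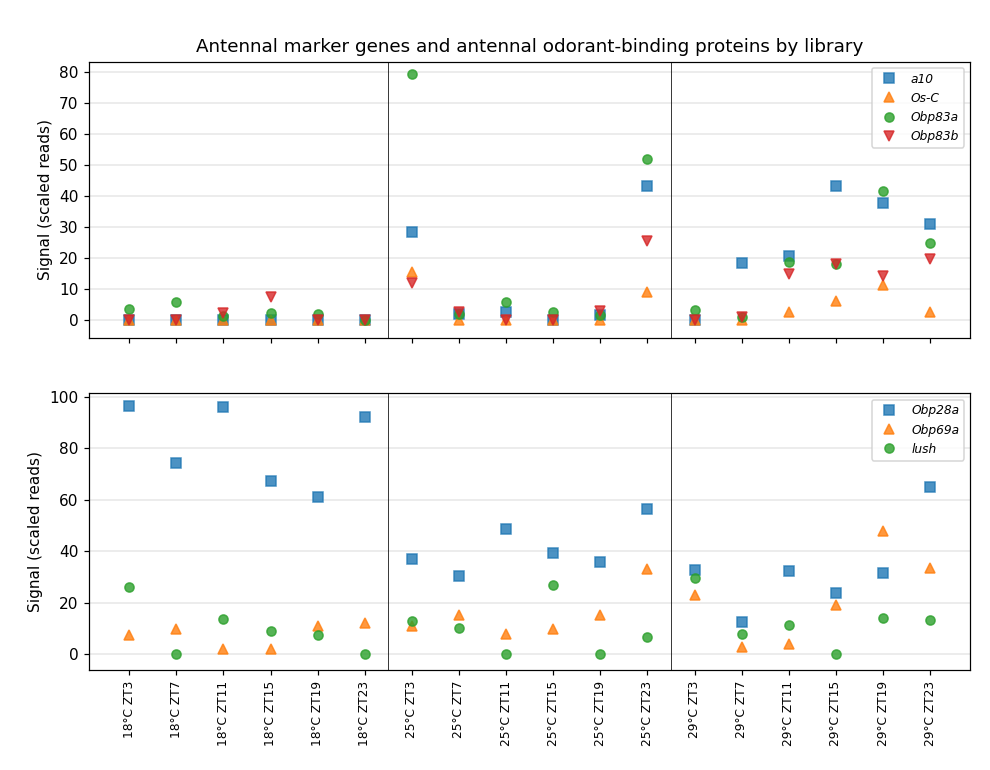
Signal (scaled reads) in each of the 18 libraries, grouped by temperature and ordered by zeitgeber time, of the antennal genes *a10* and *Os-C* with *Obp83a* and *Obp83b* (upper panel) and of *Obp28a*, *Obp69a* and *lush* (lower panel). *a10* is at 0 in all 6 libraries of 18°C, where *Obp28a* lies between 61.2 and 96.5.

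*Obp69a* (3L, 12389271 to 12390057, dm3), which in males and females modulates social responses to the same pheromone, had medians of 8.80 at 18°C and 21.3 at 29°C and a highest signal of 48.0 at 29°C ZT19. It did not pass in any temperature comparison (29°C against 18°C, 1.14 ± 0.59, limma adjusted p = 0.173). The gene lies wholly opposite *CG32104*, over 787 bases. *Obp83cd* and *Obp83ef*, the dimer genes, run towards each other and share 92 bases, and had mean signals of 20.0 and 18.8 with no call. Whether reads were counted by strand is not given in the sources used here, so reads of such a pair cannot be told apart.

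Several genes of the *Obp56* and *Obp57* groups on 2R are known from taste organs. In the *Obp56* group, neighbours were called in opposite directions at 29°C against 18°C. *Obp56d* (15590644 to 15591304, dm3) ranged from 2467 to 3515 (median 3233) at 18°C, from 1943 to 3089 (median 2285) at 25°C and from 1416 to 2164 (median 1782) at 29°C. It was lower at 29°C than at 18°C in all 6 pairs of the same time, with no overlap (−0.75 ± 0.12, limma adjusted p = 1.39e-05). The gene was also higher at 18°C than in 25°C libraries (0.37 ± 0.12, limma adjusted p = 0.0381), a call that was lost without any 1 of 8 libraries (ZT7, ZT15, ZT19 and ZT23 of 18°C and ZT3, ZT7, ZT11 and ZT23 of 25°C; limma adjusted p from 0.0544 to 0.0981) and with library size scaling (0.20, limma adjusted p = 0.234).

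*Obp56a* (15585228 to 15586013, dm3), in the same cluster, went the other way. Its signals were 146, 172 and 253 at 18°C, 186, 306 and 403 at 25°C, and 308, 369 and 518 at 29°C (lowest, median and highest). The 29°C libraries lay above all 18°C libraries (1.06 ± 0.18, limma adjusted p = 3.74e-05), and *Obp56a* was lower at 18°C than in 25°C libraries (−0.63 ± 0.18, limma adjusted p = 0.018). Without the 25°C ZT19 library that change was −0.53 (limma adjusted p = 0.0592).

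*Obp56e* (15599850 to 15600437, dm3), one of the most abundant members, ranged from 5679 to 10158 (median 7548) at 18°C, from 9566 to 13339 (median 9985) at 25°C and from 7590 to 11798 (median 9744) at 29°C. It was lower at 18°C than in 25°C libraries (−0.50 ± 0.13, limma adjusted p = 0.00838), a call lost without the intensity trend of the fit (limma adjusted p = 0.0612). At 29°C against 18°C it was higher (0.35 ± 0.13, limma adjusted p = 0.0415), but the call was lost without any 1 of 7 libraries (ZT3, ZT11, ZT15 and ZT19 of 18°C and ZT15, ZT19 and ZT23 of 29°C; limma adjusted p from 0.0534 to 0.12).

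*Obp56f* (15600900 to 15601481, dm3), next to *Obp56e*, had much lower signals of 4.34, 11.3 and 28.6 at 18°C, 12.1, 22.0 and 51.5 at 25°C, and 14.9, 31.8 and 37.6 at 29°C. It was 2.52-fold higher at 29°C than at 18°C (1.33 ± 0.42, limma adjusted p = 0.0197), and not so without the 18°C ZT3 library (limma adjusted p = 0.0559) or the 18°C ZT19 library (limma adjusted p = 0.0519). *Obp56g* was even across temperatures, with medians of 1566, 1524 and 1370 and changes of at most 0.13 in size. *Obp56h*, which affects mating behaviour in males, had medians of 131, 166 and 188 and a change of 0.57 ± 0.22 for 29°C against 18°C (limma adjusted p = 0.0581), which passed without any 1 of 4 libraries (18°C ZT7, 18°C ZT23, 25°C ZT15 or 29°C ZT3; limma adjusted p from 0.0174 to 0.0478), with a signal of at least 10 in all 18 libraries (limma adjusted p = 0.047) and with library size scaling (0.76, limma adjusted p = 0.00663).

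In the *Obp57* group only *Obp57b* (16391756 to 16392295, dm3) was called higher at 29°C than at 18°C. Its signals were 92.9, 108 and 135 at 18°C, 116, 126 and 203 at 25°C, and 171, 197 and 216 at 29°C (lowest, median and highest). The 29°C libraries did not overlap those of 18°C (0.84 ± 0.15, limma adjusted p = 7.59e-05). For 29°C against 25°C it had the lowest adjusted p of any member (0.53 ± 0.15, limma adjusted p = 0.0527), and it passed without the 25°C ZT23 library, where it stood at 203 (0.65, limma adjusted p = 0.00986), and without 18°C ZT7 (limma adjusted p = 0.0482). Its neighbour *Obp57c* (16391089 to 16391707, dm3), just before it, ranged from 511 to 736 (median 681) at 18°C, from 689 to 998 (median 802) at 25°C and from 643 to 751 (median 718) at 29°C. It was lower at 18°C than in 25°C libraries (−0.32 ± 0.10, limma adjusted p = 0.0417). This call was lost without any 1 of 6 libraries, ZT7, ZT11 and ZT19 of 18°C and ZT7, ZT11 and ZT23 of 25°C (limma adjusted p from 0.0657 to 0.112). It was also lost without the intensity trend of the fit (limma adjusted p = 0.11) and with any signal above 0 as the filter (limma adjusted p = 0.0575). *Obp57a*, the next gene, had medians of 222, 207 and 236 and passed in no comparison.

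The *Obp19* group on the X chromosome has 4 genes side by side. *Obp19b* (20287760 to 20288839, dm3) followed the temperature in order, with signals of 32.9, 68.0 and 103 at 18°C, 128, 169 and 216 at 25°C, and 230, 241 and 330 at 29°C (lowest, median and highest). No 2 temperatures overlapped. It was 2.55-fold lower at 18°C than in 25°C libraries (−1.35 ± 0.21, limma adjusted p = 4.75e-05) and 3.88-fold higher at 29°C than at 18°C (1.96 ± 0.21, limma adjusted p = 3.81e-08), both called under every alternative. The change for 29°C against 25°C, 0.61 ± 0.21, did not pass (limma adjusted p = 0.143) although all 6 time points were higher at 29°C.

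*Obp19d* (20290640 to 20292006, dm3), also called PBPRP2 and found in both olfactory and taste hairs, ranged from 3475 to 5197 (median 4218) at 18°C, from 4633 to 6901 (median 5618) at 25°C and from 4659 to 6496 (median 5215) at 29°C. It was lower at 18°C than in 25°C libraries (−0.44 ± 0.10, limma adjusted p = 0.00488) at all 6 times. It was higher at 29°C than at 18°C (0.31 ± 0.10, limma adjusted p = 0.0286), a call lost without any 1 of 5 libraries (ZT11 and ZT15 of 18°C and ZT15, ZT19 and ZT23 of 29°C; limma adjusted p from 0.0534 to 0.0895). *Obp19c*, between them and on the opposite strand, had medians of 13.3, 16.3 and 11.4 and passed in no comparison, and *Obp19a* stayed below the signal minimum with at most 9.94.

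**Figure D5:**
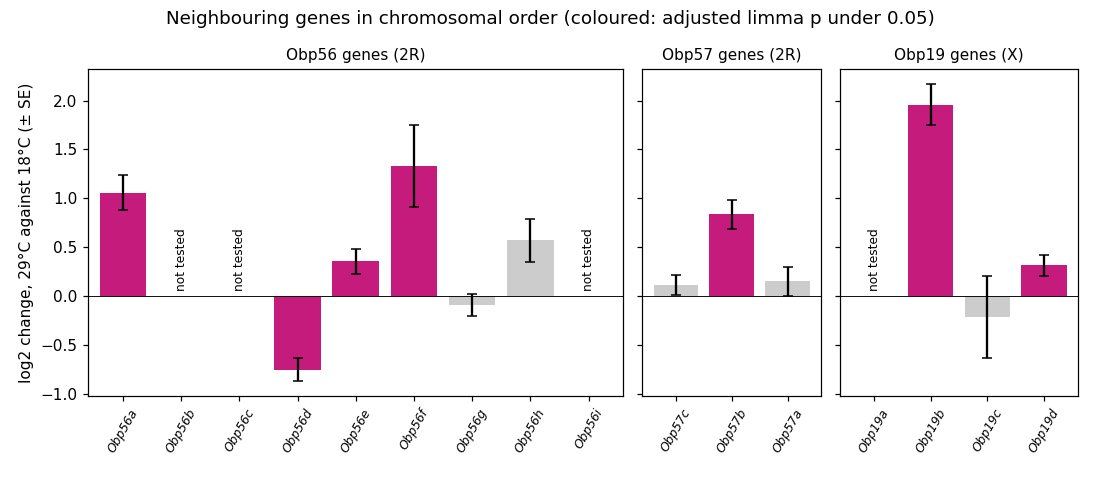
Change at 29°C against 18°C (log2 scale, bars with standard errors) of the genes of the *Obp56*, *Obp57* and *Obp19* groups in chromosomal order, with genes past a limma adjusted p of 0.05 in colour and genes below the signal minimum marked as not tested. *Obp56d*, at −0.75, lies between *Obp56a* at 1.06 and *Obp56e* at 0.35, and *Obp57b*, at 0.84, lies between *Obp57c* at 0.11 and *Obp57a* at 0.15.

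*Obp18a* (X, 19029114 to 19029901, dm3) ranged from 298 to 513 (median 342) at 18°C, from 280 to 354 (median 315) at 25°C and from 234 to 333 (median 276) at 29°C. It was lower at 29°C than at 18°C (−0.35 ± 0.12, limma adjusted p = 0.0392), but the groups overlapped and the call was lost without any 1 of 7 libraries (ZT7, ZT11 and ZT15 of 18°C and ZT11, ZT15, ZT19 and ZT23 of 29°C), with limma adjusted p from 0.0545 to 0.13, the highest without 18°C ZT7 (−0.25). Library size scaling gave −0.16 (limma adjusted p = 0.377). *Obp49a* (2R, 8577564 to 8578460, dm3), which binds bitter compounds in taste hairs and dampens the response to sugar, was the 1 plus-C gene with signal, at medians of 924, 917 and 765. Its change for 29°C against 18°C was −0.26 ± 0.12 (limma adjusted p = 0.132), and without the 18°C ZT11 library it was −0.37 (limma adjusted p = 0.0129).

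For 29°C against 25°C the unadjusted limma p was under 0.05 in 10 of the 28 members, against 13.9% of all rows. The lowest limma adjusted p were those of *Obp57b* (0.0527), *Obp99b* (0.0588), *Obp99c* (0.0643) and *Obp56d* (0.0859). With time as a replicate block, *Obp56d*, *Obp57b*, *Obp99a* and *Obp99b* passed. Leaving out single libraries also gave calls. *Obp57b* and *Obp99b* passed without 18°C ZT7, *Obp99b* alone without 25°C ZT15 or 29°C ZT11, *Obp99c* alone without 25°C ZT19 (−0.34, limma adjusted p = 0.0316) and *Obp57b* alone without 25°C ZT23.

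To ask whether members vary over the day, a cosine of 24 h period was fitted at each temperature. No member passed a limma adjusted p of 0.05 at any of the temperatures, in a rhythm common to all temperatures or in the difference of rhythms between them, against backgrounds of 0.136%, 0.17%, 0.102%, 0.497% and 0%. Unadjusted limma p under 0.05 were found for 3, 7, 6, 8 and 5 of the 28 members in these tests. The shares of all rows were 7.56%, 8.20%, 4.78%, 8.66% and 4.91%. The common rhythm came nearest in *Obp99a*, with a peak at 16.9 h and a peak-to-trough size of 1.13 on the log2 scale (limma adjusted p = 0.161), in *Obp69a* (peak at 22.4 h, size 2.20, limma adjusted p = 0.168) and in *Obp56d* (peak at 16.5 h, size 0.42, limma adjusted p = 0.208). *Obp99b* at 25°C was at 145 at ZT7 and at 706 at ZT15, with a fitted peak at 16.3 h (size 1.53, limma adjusted p = 0.221). Without the 18°C ZT7 library 3 members passed in the common rhythm, *Obp99a* (limma adjusted p = 0.0201), *Obp56d* (limma adjusted p = 0.022) and *Obp56e* (limma adjusted p = 0.0263).

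Of the 22 members that were not tested, 11 were at 0 in every library. They were *Obp22a*, known from seminal fluid, *Obp46a*, *Obp47a*, *Obp50c*, *Obp50d*, *Obp50e*, *Obp56i*, *Obp58c*, *Obp58d*, *Obp85a* and *Obp93a*. A further 5 never rose above the value of 3 reads. The member just outside the minimum was *Obp56c* (2R, 15587500 to 15588629, dm3), which reached a signal of 10 in 3 libraries, all of 18°C. It had 16.3 and 16.7 at ZT3 and ZT11 of 18°C, just reached the minimum at ZT7 and had 3.07, 9.27 and 5.50 at ZT15, ZT19 and ZT23, against 2.17 and 6.78 at ZT3 and ZT7 and 0 at the other times of 25°C. At 29°C it was at 0 except for 0.646 at ZT11. *Obp84a*, an antennal gene, reached at most 3.70, *Obp57e*, which affects the choice of egg-laying sites, at most 3.70, and *Obp59a*, needed for sensing humidity, at most 2.21. By chromosome, 9 of 12 members on 3R, 5 of 6 on X, 2 of 3 on 3L, 1 of 2 on 2L and 11 of 27 on 2R were tested.

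Genes listed as chemosensory accessory proteins or odorant-degrading enzymes were called mainly between 29°C and 18°C, where 23.1% of all rows were called. Of 5 tested genes in a list of 26 chemosensory accessory proteins, none passed against 25°C at either temperature, and 2 were higher at 29°C than at 18°C, *Phk-3* and *a10*. *a10* reached the signal minimum at 25°C and 29°C only, so that its entry into the test already required a difference from 18°C. *Phk-3* averaged 188 ± 27.8 at 29°C and 130 ± 26.8 at 18°C (SD, n = 6 each, change 0.54 ± 0.15, limma adjusted p = 0.00831). Of 5 tested odorant-degrading enzymes, 2 were called higher at 29°C than at 18°C (*Jhedup* and *Est-6*) and 3 lower (*Cyp28a5*, *Ugt36Bc* and *Cyp4e2*), and *Ugt36Bc* was the 1 gene called between 18°C and 25°C, higher at 18°C. *Jhedup*, a carboxylesterase of the antenna, ranged from 7.38 to 42.1 at 29°C and from 0 to 4.63 at 18°C, and like *a10* it reached the signal minimum at 25°C and 29°C only, so its call is no independent evidence of a difference. Of 17 olfactory receptor and co-receptor genes in the table only 1 had enough signal to be tested, and it did not pass.

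The takeout family, secreted carriers of small hydrophobic ligands, had 15 of 24 genes tested. Of these, 3 were higher and 1 lower at 18°C than in 25°C libraries (all rows 6.68% and 4.16%), and none passed for 29°C against 25°C (all rows 2.06%). At 29°C against 18°C, 1 was higher and 6 were lower (all rows 10.5% and 12.6%), with a median change of −0.57 in the last comparison against 0.05 for all rows. *CG11852* had a median of 32.4 at 29°C and 61.1 at 18°C (−1.54 ± 0.41, limma adjusted p = 0.00671), and *CG7079* a median of 60.7 at 29°C and 116 at 18°C (−1.05 ± 0.19, limma adjusted p = 0.000139). *takeout* itself, a feeding- and clock-regulated gene, had medians of 43.8, 34.9 and 24.8 at 18, 25 and 29°C and was not called.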

How the data were processed

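The authors deposited 1 table of 3′ RNA-seq signal, that is reads per annotated transcript divided by 1 constant per library (18 libraries, Canton-S heads, 1 for each temperature and time). The study analysed replicate sets of libraries, and a further set is not analysed here. The submitters' processing notes name Bowtie2, TopHat, Cufflinks and the dm3 build. The counting rule, the strand setting and the origin of the constants are not given in the sources used here. The most frequent nonzero value of a library was taken as 1 read, and 96.8% to 97.7% of nonzero values were whole multiples of it (within 0.01 reads). The rest were fractions, so no count test was run. Depth limits precision below a signal of about 10, and the floor of 3 reads covers counting error only.

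Groups were taken from the temperature in the labels. The fifth time is 18 h in some labels and 19 h in others, and ZT19 was used. Of 29561 rows, 667 held no values. Repeats of a gene's row with equal values were dropped and rows of a gene differing by under 10% were merged. Rows with a signal of at least 10 in at least 6 libraries were tested (8846 rows of 8200 genes). Values were transformed to log2(signal + 1) and compared with limma 3.58.1 (R 4.3.3; 3 temperature means, empirical Bayes with intensity trend, tested on simulated data), with Benjamini-Hochberg adjustment over all rows. Fold changes on this scale understate changes of low signals. Rhythms were F-tests of 24 h cosine terms. Members called in a temperature comparison and the 3 most abundant members are given with values, and from other lists at most 4 called genes. Alternatives changed the pseudocount, filter, scaling, merging, block, trend and time, and left out each library. Coding lengths are those of the Ensembl annotation of a later build, matched by symbol for all 50 genes. The members and lists were chosen with earlier results of these data known.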

Additional observations from a re-analysis of the deposited data

Results flagged for a closer look

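For each tested member and temperature, the highest and lowest of the 6 libraries were compared with the others, and a library was marked when its gap to the nearest other library exceeded Dixon's 95% critical share of the group's range. Of 84 groups 8 were marked, where chance would mark about 4.2. *Obp56g* was at 978 at 18°C ZT11, against 1532 to 1756 at the other times of 18°C. *Obp18a* was at 513 at 18°C ZT7, against 298 to 374, and *Obp83b* was at 7.16 at 18°C ZT15, against 0 to 1.96. At 25°C ZT23, *Obp57b* was at 203 against 116 to 142 and *Obp69a* at 33.1 against 7.86 to 15.3. At 25°C ZT15, the library with the fewest reads, *Obp83g* was at 137 against 52.2 to 76.3. At 29°C ZT15, *Obp57a* was at 168 against 225 to 247 and *Obp19b* at 330 against 230 to 259. With 1 library per temperature and time, a difference of the time of day and of a single library cannot be told apart in these values.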

How the results depend on the processing

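Of 24 calls of single members in the temperature comparisons, 13 were kept under every alternative and 11 were lost under at least 1, and no alternative turned a direction. Of 21 further member results that did not pass but had an adjusted p under 0.25, 11 passed under at least 1 alternative. For 18°C against 25°C, 11 members were called, and 6 were called with no intensity trend (4 higher, 2 lower). The calls lost without the trend were those of *Obp56a*, *Obp56d*, *Obp56e*, *Obp57c* and *Obp99b*. The cause was not tested in any of these. Leaving out 1 library gave 9 to 12 calls. For 29°C against 25°C no member was called, but 3 were with a signal of at least 10 in all 18 libraries (18 members tested; *Obp57b*, *Obp99b* and *Obp99c*), 1 with median-of-ratios factors (*Obp99c*) and 4 with time as a replicate block (*Obp56d*, *Obp57b*, *Obp99a* and *Obp99b*). Leaving out 1 library gave 0 to 2. For 29°C against 18°C, where 13 were called, leaving out 1 library gave 10 to 16 and the other alternatives 10 to 14, the 14 with the block, which added *Obp56h* (adjusted p = 0.0243), or with library size scaling. The rhythm tests gave 0 calls, except for 0 to 3 in the common rhythm when 1 library was left out. For libraries of the same time, deviations from the temperature means were correlated over all rows. The correlation ran from −0.05 to 0.11 and exceeded 0.1 in 2 of 18 pairs, and the main fit used no block. A correlation over all rows cannot show whether single members share an effect of the time. The block gave 11 calls for 18°C against 25°C.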
